A study of Pimephales promelas with 32 samples.

Results

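In whole fathead minnow larvae (Pimephales promelas, a North American freshwater fish and common test species in aquatic toxicology), 92 of 26150 gene models were selected for, among other limits, a mean level of at most 0.77 times that of controls after copper sulfate and of at least 0.85 times that of controls after the pyrethroid insecticide bifenthrin. Members were selected on their levels in counts per 1e+06 (CPM), each count divided by the larva's total count. A gene model was chosen when its mean raw count over the 32 larvae was from 50 to under 10000 and its mean copper sulfate/control CPM ratio was 0.77 or less. In addition, 5 or more of the 11 copper sulfate larvae had to be lower than every control larva, and the mean bifenthrin/control CPM ratio had to be 0.85 or more. Of 16457 models in the count range, 996 met the limit on the copper sulfate ratio and 385 also met the limit on larvae. The limit on bifenthrin then left 92 of the 385 (23.9%), and the other 293 (76.1%) had a bifenthrin ratio under 0.85.

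The study's question was whether transcriptional classifiers tell apart toxic chemicals with unlike modes of action. RNA was sequenced from single whole larvae, with 11 controls, 10 larvae kept in bifenthrin at 3.2 µg/L and 11 larvae kept in copper sulfate at 40 µg/L. All groups, controls included, were kept for 48 h at 25 °C in 100 mL of solution with 0.002% DMSO as vehicle, and the solution was renewed at 24 h. The age label gives 4 days post fertilisation or 48 h post hatch, whereas the treatment protocol gives 96 h post hatch, and the difference was not resolved. Larvae were held 10 to a beaker in 5 beakers per treatment, and 3 larvae were taken from each beaker. Larvae of a group thus shared beakers, but the labels do not tie larvae to beakers. The p-values therefore treat larvae as independent and would be too small if larvae of a beaker resemble each other.

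Copper is an essential trace metal that serves as a cofactor of enzymes of respiration, pigment formation and antioxidant defence. In excess, dissolved copper is known in freshwater fish to disturb sodium uptake at the gill and to promote oxidative damage. Bifenthrin belongs to the pyrethroids, which prolong the opening of sodium channels in nerve cells. The count table names each gene by a model number and, for most models, a UniProt protein accession, without symbols or product names. Members are therefore named here by model number and accession, and no function is given for any of them. In RNA from whole larvae, fewer cells of a type and less RNA per cell cannot be told apart.

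Total counts ranged from 10655113 to 17993699 per larva, and no pair of larvae agreed within sampling noise. After a filter on low counts, 21174 models were tested across the whole table with edgeR's quasi-likelihood test, and all 92 members passed the filter. TMM scaling factors, which adjust for the composition of a library, averaged 1.03 among controls, 0.985 for bifenthrin and 0.984 for copper sulfate. Fold changes scaled by library totals, as used in the choice of members, were therefore shifted by -0.07 on the log2 scale relative to TMM for either chemical. By their labels, libraries were run in lane 6 (6 control, 5 bifenthrin, 5 copper sulfate) or lane 7 (5 control, 5 bifenthrin, 6 copper sulfate).

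The members were spread over a wide range of levels and of sizes of difference. Their mean raw counts ran from 55.0 to 5003 with a median of 184, against a median of 260 over all models in the count range. Together they made up 0.350% of the counts of control larvae. The summed CPM of the members ranged from 2824 to 4007 in controls (median 3657), from 3182 to 4439 in bifenthrin larvae (median 3688) and from 1726 to 2831 in copper sulfate larvae (median 2121). Only copper sulfate replicate 14 thus had a higher sum than the lowest control, and the other copper sulfate larvae lay below every control. The members were chosen for low levels in these same copper sulfate larvae, so the lower sums follow from the choice and are a description only. Of the 92 members, 84 carried an accession and 8 (8.70%) carried none, against 5.18% without one over the count range. No accession occurred in more than 1 member. For 23 members, another model of the table carried the same accession, so their counts may share reads with a related gene, and none carried an enzyme class number.

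The copper sulfate ratio, which chose the members and is given without a test, ran from 0.0974 to 0.765 with a median of 0.696. Over all models in the count range the median ratio was 0.946. The ratio was at or under 0.7 in 49 members, at or under 0.6 in 20, at or under 0.5 in 10 and at or under 0.4 in 5. The bifenthrin ratio, also used in the choice, ran from 0.851 to 2.06 with a median of 1.04, against 0.942 over the count range. It was at least 1 in 57 members, at least 1.2 in 24 and at least 1.5 in 10.

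**Figure D1:**
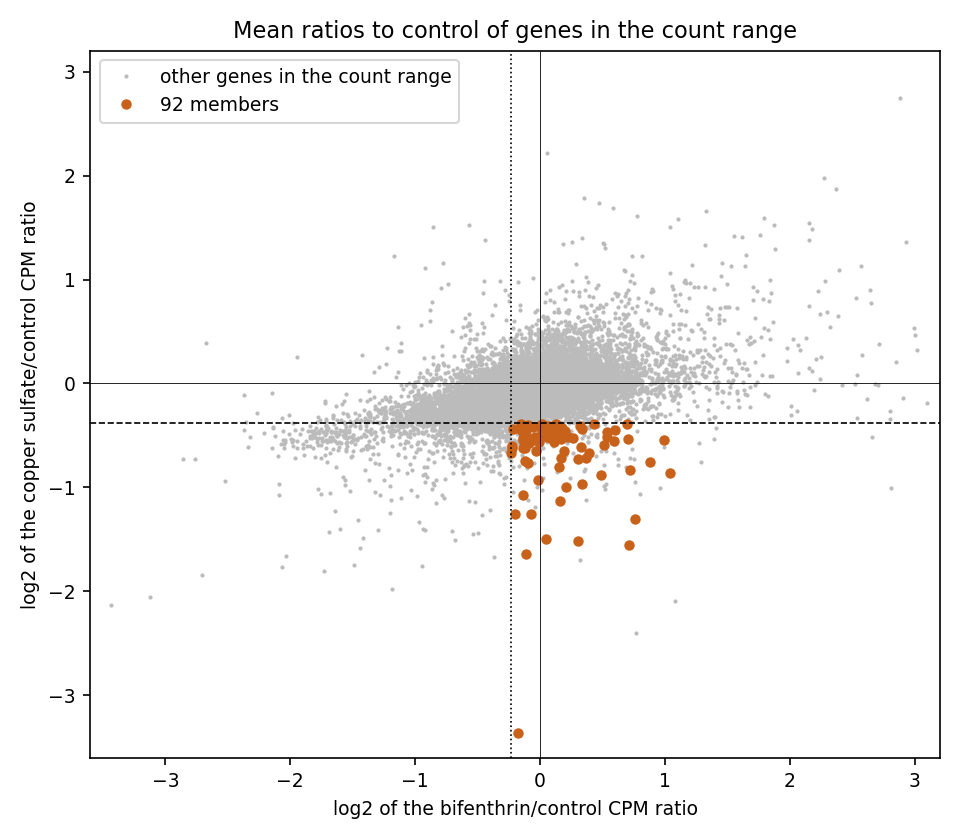
Each point is a gene model with a mean raw count from 50 to under 10000. The x axis gives the log2 of the mean bifenthrin/control CPM ratio and the y axis that of copper sulfate/control, with dashed and dotted lines at the limits of 0.77 and 0.85. The 92 members (orange) lie under the dashed line and right of the dotted line by construction. Other models (grey) that missed the limit on larvae lie there too, among them 41 with 4 larvae below the lowest control. The member FMg002560, with a copper sulfate ratio of 0.0974, lies far below the rest of the members.

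In edgeR's test across all genes, 46 of the 92 members (50%) had an adjusted p under 0.05 for lower levels with copper sulfate, where 1.99% of all genes tested did. Of all genes, 5.58% were called for copper sulfate in either direction and 3.58% were called higher, and 0 members were called higher. For bifenthrin, 19 members (20.7%) were called higher, against 18% of all genes, and 0 were called lower, against 20.2%. Between the chemicals, 81 members (88.0%) were called higher in bifenthrin than in copper sulfate larvae, against 14.9% of all genes. The choice of members used the same contrasts, so nothing is read from these counts. The median log2 fold change of the members, scaled by TMM, was -0.45 for copper sulfate and 0.13 for bifenthrin, and it was -0.01 for either chemical over all genes tested.

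FMg002560 (Q6PHV3) had the lowest copper sulfate ratio of the set. Its level was 9.32 CPM in the lowest, 12.3 in the median and 27.8 in the highest control larva, and 6.52, 12.7 and 20.7 CPM in bifenthrin larvae. In copper sulfate larvae the lowest was 0, the median 0.172 and the highest 12.8 CPM. Copper sulfate larvae thus split into 1 larva at the level of controls and 10 larvae near 0. The high larva was copper sulfate replicate 5, in lane 7, with 199 counts. The other 10 held 37 counts in all, 3 of them with none and none with more than 16, whereas single control larvae held 111 to 303 counts. With that larva the mean copper sulfate/control ratio was 0.0974, and without it the ratio was 0.0181, a mean 55.3-fold lower than in controls. FMg002560 was the only member whose ratio moved by more than 1.5 times when any 1 larva was left out. In copper sulfate replicate 5, 63 of the 92 members lay below the lowest control, as many as in the median copper sulfate larva. That larva was among those that chose the members, and without it the choice gave 77 models, 70 of them among the 92. The count therefore does not show whether that larva responded like the others.

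In 4 members every one of the 11 larvae given copper sulfate was below the lowest control, a separation found in 0.0283% of all genes tested (6 genes). The choice required copper sulfate larvae below the lowest control, so the count of 4 is a description only. The first of the 4 members, FMg003660 (Q5U3P2), had 255 CPM in the lowest, 320 in the median and 370 in the highest control larva. It had 253, 332 and 377 CPM in bifenthrin larvae and 69.6, 107 and 158 CPM in copper sulfate larvae. Control and bifenthrin larvae covered nearly the same range, and copper sulfate larvae lay wholly below both. The mean was 316 ± 37.9 CPM in controls (SD, n = 11), 327 ± 32.2 with bifenthrin (SD, n = 10) and 112 ± 29.3 with copper sulfate (SD, n = 11), a ratio of 0.355.

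FMg004685 (A8WG37) had 11.0, 13.8 and 17.5 CPM in the lowest, median and highest control larva, 13.9, 17.08 and 19.7 with bifenthrin and 2.64, 4.99 and 6.12 with copper sulfate. Its copper sulfate larvae again lay wholly below both other groups, while 5 of 10 bifenthrin larvae lay above the highest control. The ratios to control were 0.350 for copper sulfate and 1.23 for bifenthrin.

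FMg010792 (Q9Y6R7) had 2.83, 4.97 and 10.7 CPM in controls, 4.65, 9.38 and 13.2 CPM in bifenthrin larvae and 0.984, 2.15 and 2.58 CPM in copper sulfate larvae. The mean ratio was 0.340 for copper sulfate and 1.64 for bifenthrin, with bifenthrin and control larvae overlapping.

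FMg015366 (Q503K9) was the only member in which all 3 groups were apart. Its level was 10.45, 11.0 and 14.3 CPM in controls, 14.7, 16.36 and 18.4 CPM in bifenthrin larvae and 3.45, 6.07 and 10.2 CPM in copper sulfate larvae. All 10 bifenthrin larvae thus lay above the highest control, which held for 2.37% of all genes tested, and with copper sulfate all 11 were under the lowest control. The mean ratio was 1.4 for bifenthrin and 0.544 for copper sulfate.

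**Figure D2:**
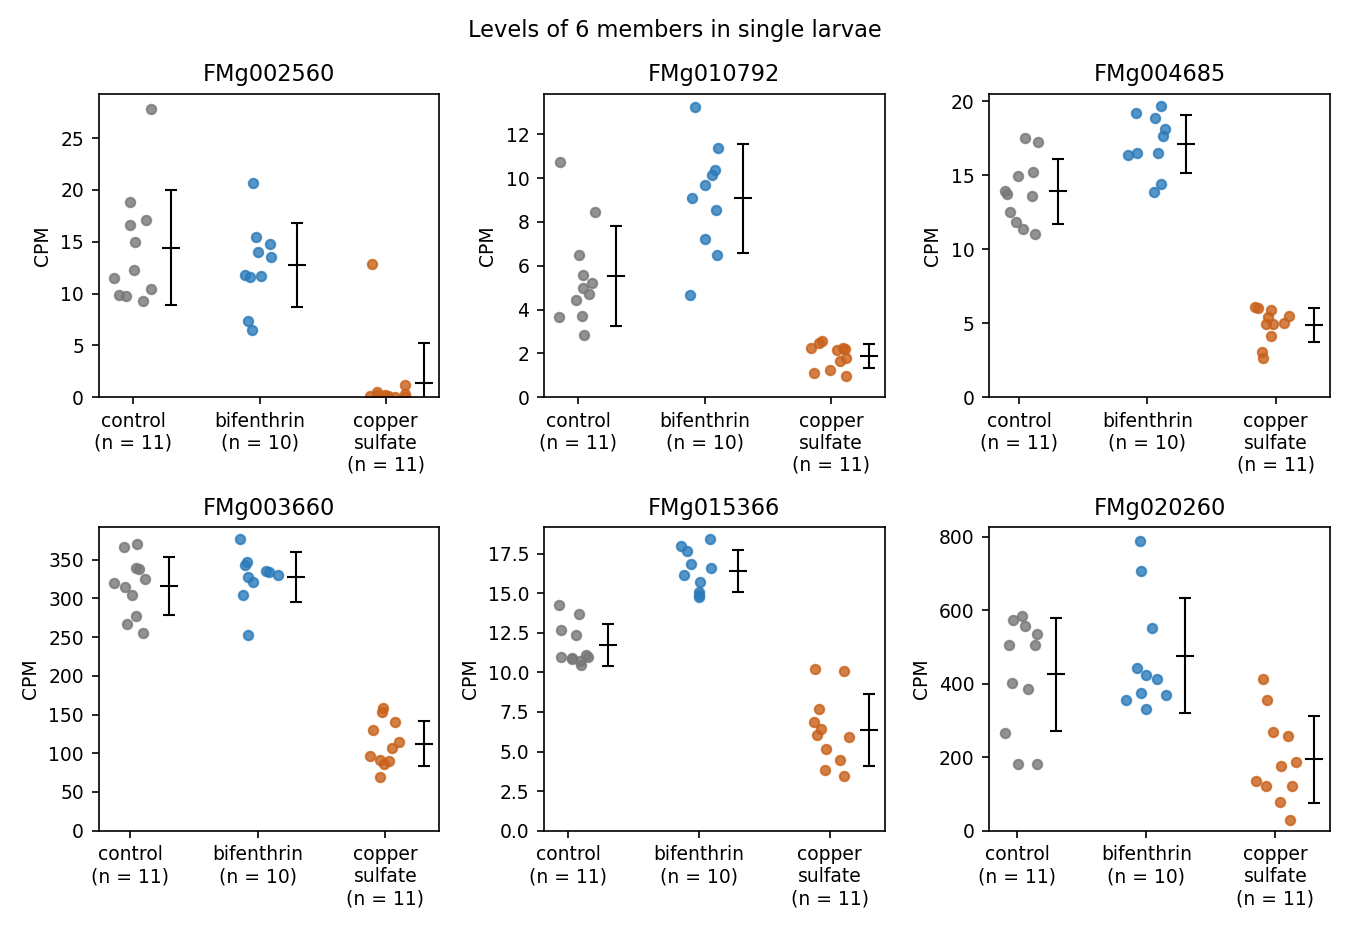
Each point is the CPM of 1 larva for 6 members, by group, with the group mean and SD beside the points. Copper sulfate larvae lie below all controls in FMg010792, FMg004685, FMg003660 and FMg015366; in FMg002560 the single copper sulfate larva at 12.8 CPM stands among the controls (its lower error bar ends below the axis), and in FMg020260 the groups overlap.

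The other members with the lowest copper sulfate ratios overlapped with controls in at least 1 larva. FMg019266 (Q7T130) and FMg010791 (A0A140LFW6) each had 10 of 11 copper sulfate larvae below the lowest control, with ratios of 0.418 and 0.476, and bifenthrin ratios of 0.95 and 0.91. FMg001358 (Q1A5L3) varied widely among controls, from 9.53 to 85.3 CPM with a median of 25.0, and ran from 5.94 to 17.4 CPM in copper sulfate larvae, 8 of them below the lowest control. FMg012518 (J3QKX5) had a ratio of 0.420 with 5 larvae below. FMg008119, which carries no accession, had a copper sulfate ratio of 0.406 and a bifenthrin ratio of 1.695. Its controls ran from 0.845 to 10.7 CPM and its copper sulfate larvae from 0 to 6.72 CPM, so these groups overlapped broadly.

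FMg020260 (A4FUN4) had the highest mean CPM of the set, a scale that does not account for gene length. It had 180 CPM in the lowest, 506 in the median and 586 in the highest control larva. The values were 332, 419 and 789 CPM with bifenthrin and 27.9, 176 and 414 CPM with copper sulfate. Of the 11 copper sulfate larvae, 6 were lower than any control and 5 were within the range of controls. The next by mean CPM were FMg003660, described above, and FMg018185 (Q803U6), whose ratio was 0.697 with 7 larvae below the lowest control.

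Bifenthrin ratios differed among members, from 0.851 to 2.06, within the wider range of 0.0925 to 56.1 over all models in the count range. The choice left out ratios under 0.85. FMg002741 (E9QGD4) had the highest bifenthrin ratio, 2.06, with 37.4, 64.1 and 77.05 CPM in the lowest, median and highest control, 40.3, 125 and 174 CPM with bifenthrin and 20.1, 30.3 and 55.8 CPM with copper sulfate. In FMg002741, 8 of 10 bifenthrin larvae lay above the highest control. The next highest bifenthrin ratios were 1.99 in FMg023691 (Q803Y8), with 9 of 10 larvae above the highest control, and 1.84 in FMg011700 (Q7SY53), with 8 of 10. Copper sulfate ratios of these members were 0.549, 0.687 and 0.594. In 10 members every bifenthrin larva lay above every copper sulfate larva, which held for 2.26% of all genes tested. Besides the 4 members above with separate copper sulfate larvae these were FMg008157, FMg016682, FMg018407, FMg018853, FMg020549 and FMg023691. The choice set limits on both ratios, so the count of 10 is a description only. At the other end, FMg011960 (B0JZN8), FMg020462 (F1QMB0) and FMg001880 (E7F082) had bifenthrin ratios of 0.851, 0.857 and 0.857 and copper sulfate ratios of 0.628, 0.651 and 0.658.

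Models just outside the limits of the choice had values close to those of members just inside. The members just inside the copper sulfate limit were FMg002487 (0.764) and FMg021446 (0.765), and the models just outside were FMg022300 and FMg014530 (both 0.771). Just outside the bifenthrin limit lay FMg008982 (0.849) and FMg002848 (0.846). A further 41 models met all other limits with 4 larvae below the lowest control, such as FMg003256 and FMg009897, while FMg012518 and FMg021699 were just inside with 5. Another 52 met all limits but the lower count, with FMg002986 (49.6) and FMg017614 (48.3) just outside and FMg001022 (55.0) just inside. The upper count limit kept out 1 model, FMg000286, with a mean count of 11789. Exactly 5 larvae were below the lowest control in 22 members, exactly 6 in 33, and at least 8 in 26.

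Larvae exposed to copper sulfate differed in how much of the set was low. The number of members below the lowest control was 29 in the lowest, 63 in the median and 76 in the highest of the 11 copper sulfate larvae. Copper sulfate replicates 6, 4 and 13 had the most, with 76, 72 and 67 members, and replicates 14, 10 and 7 the fewest, with 29, 38 and 39. Among bifenthrin larvae the number ran from 2 to 11. The choice required 5 or more copper sulfate larvae below the lowest control and limited the bifenthrin ratio. The gap between the chemicals thus follows from the choice. No share over all models is given beside these counts, so nothing is read from them. The lowest control was not the same larva throughout, but control replicates 14, 5 and 10 held the lowest control level for 29, 21 and 16 members. Without control replicate 14, the choice gave 149 models, of which 88 were among the 92.

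Relative to the group mean, the spread among larvae was wider in copper sulfate than in control larvae for these genes. The median coefficient of variation of the members was 20.8% in controls, 19.5% with bifenthrin and 28.2% with copper sulfate. Over all models in the count range it was 17.6%, 15.2% and 17.5%. At an unchanged SD a lower mean gives a higher coefficient, and the choice required low copper sulfate means. The values thus do not show a wider spread in CPM, and the difference in spread was not tested.

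Part of the set varied together from larva to larva within a group. The choice is not free of this variation, since it counts single copper sulfate larvae and its mean ratios move with 1 very low larva. After subtraction of each group's mean log2 CPM, the mean pairwise correlation over 32 larvae was 0.138 among members, 0.0433 among all models in the count range and 0.126 among the 293 models with low bifenthrin ratios. All such values share the libraries, their totals and their composition, so they are given as a description. Average-linkage clustering at a correlation of 0.45, a limit chosen with the values known, put 30 members into 1 cluster. The next largest cluster had 5 members, and 20 members stood alone. Within the cluster of 30 the mean correlation was 0.410 among controls, 0.437 among bifenthrin larvae and 0.739 among copper sulfate larvae. The clustering used these same larvae, so the values describe the cluster and are no test of it.

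The cluster of 30 included FMg020260, FMg002741, FMg011700, FMg023691, FMg010791 and FMg002487, but none of the 4 members with fully separated copper sulfate larvae and not FMg002560. Its median copper sulfate ratio of 0.683 was close to that of the other 62 members, 0.701. The members with the highest mean correlation to the cluster, named after their values were seen, were FMg015445 (Q7SYE4) and FMg021950 (Q9UHC9, A0A0C4DFX6). FMg015445 had 72.8, 146 and 185 CPM in the lowest, median and highest control and 16.5, 68.3 and 137 CPM in copper sulfate larvae, with the lowest value in copper sulfate replicate 5 and the highest in replicate 14. FMg021950 had 35.4, 65.7 and 79.4 CPM in controls and 4.90, 33.9 and 67.4 CPM in copper sulfate larvae, with the lowest value again in replicate 5 and the highest in replicate 10. In both, copper sulfate larvae ran from levels within the range of controls to a small part of them.

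Over the cluster of 30 the copper sulfate larvae differed widely in the median, although single members had other larvae lowest or highest. FMg002741, for example, had 22.5 CPM in copper sulfate replicate 5 and its lowest level, 20.1 CPM, in replicate 4. The median log2 ratio of the cluster's members to the control mean, with 0.5 CPM added to every value, was -1.99 in copper sulfate replicate 5, -0.98 in replicate 4, -0.21 in replicate 7, -0.10 in replicate 14 and -0.07 in replicate 10. Control larvae ran from -0.47 to 0.29, so the copper sulfate larvae with the weakest difference lay within the range of controls. Over the other 62 members the medians ran from -0.78 to -0.42 in copper sulfate larvae and from -0.22 to 0.10 in controls, and these groups did not overlap. The medians rest on the contrast that chose the members, and the split into 30 and 62 was made on the same variation among larvae, so the narrower range of the 62 is no finding. As a description only, the median coefficient of variation among copper sulfate larvae was 37.8% in the cluster and 24.67% in the other 62. Copper sulfate replicate 5 thus had the lowest median over the cluster and was the 1 larva in which FMg002560 was not low.

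**Figure D3:**
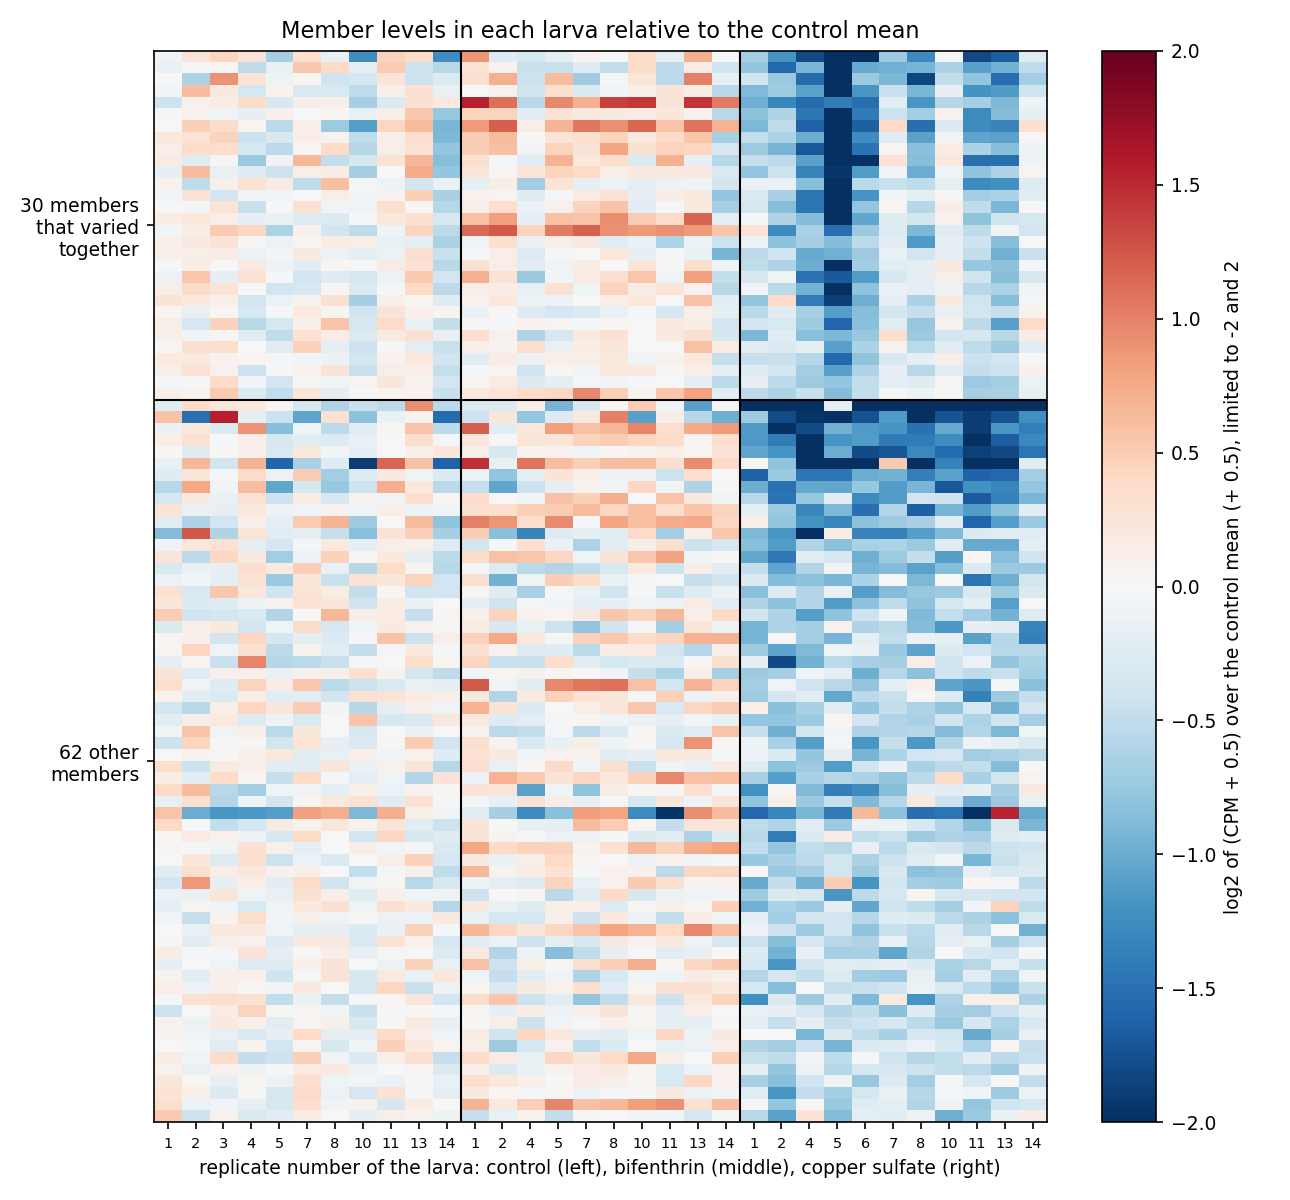
Each row is a member and each column a larva, coloured by the log2 ratio of its CPM to the control mean with 0.5 added to both, limited to -2 and 2. Over the upper 30 rows, which were grouped by their correlation, the median is lowest in copper sulfate replicate 5 (-1.99), while single rows such as FMg002741 are lowest in another larva.

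**Figure D4:**
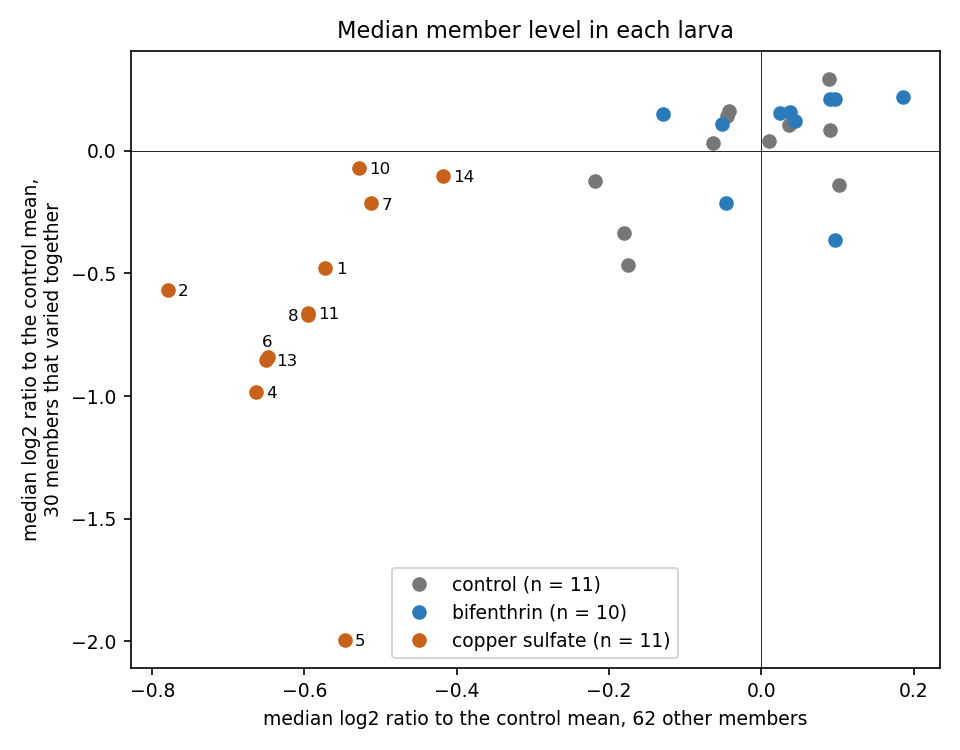
Each point is a larva, with the median log2 ratio to the control mean over the 62 other members on the x axis and over the 30 members that varied together on the y axis. Copper sulfate larvae (orange, with replicate numbers) spread from -1.99 to -0.07 on the y axis, and all lie left of the controls on the x axis, between -0.78 and -0.42.

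The members whose level followed FMg002560 most closely, by the mean of the correlations within the 3 groups over 32 larvae, were FMg004685 (0.55), FMg002680 (A0A0G2L0E2, 0.53) and FMg012518 (0.36). For FMg004685 the correlation was 0.67 among controls, 0.58 with bifenthrin and 0.38 with copper sulfate, where 10 of 11 larvae held at most 16 counts of FMg002560 and replicate 5 held 199. These members were picked for the highest mean correlation among all other members, so the values are a description. Model numbers next to each other occurred 3 times in the set, and the positions of these models in a genome were not used here. FMg023252 and FMg023253 varied together within groups (correlation 0.89 over 32 larvae), as did FMg023999 and FMg024000 (0.56). FMg010791 and FMg010792 did not (-0.03).

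Sequencing lane, which the choice did not use, was called for 0 of the 92 members in the same edgeR fit, and also for 0% of all genes tested. At an unadjusted p under 0.05, 7 members (7.61%) differed between lanes, against 11.9% of all genes tested. The log2 difference of lane 7 from lane 6 had a median of -0.05 over the members and ran from -0.48 to 0.38. Within each lane all 92 members had a copper sulfate ratio under 1, with medians of 0.691 in lane 6 and 0.70 in lane 7, and 79 members were at or under 0.77 in either lane. These lane values come from the larvae that chose the members and describe them only.

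To read the pattern in larvae that did not choose it, the limits were applied to 1 lane and the resulting models were followed in the other. In the lane that chose, at least 3 copper sulfate larvae had to lie below the lowest control of the lane. The limits themselves were set with earlier results of these data known. Larvae of 1 beaker may also be in both lanes, so a difference between beakers could repeat in the other lane. The lanes are therefore not independent experiments. Part of the 92 members also varied together from larva to larva, so the shares below do not count independent models. Lane 6 alone gave 184 models, 58 of them among the 92. In lane 7, which shares no larva with lane 6, 174 of the 184 (94.6%) had a lower mean with copper sulfate than in controls, against 66.5% of all 16448 models in the count range by lane 6. The median copper sulfate ratio there was 0.767, against 0.953 over all models, and 93 of the 184 (50.5%) were at or under 0.77, against 6.77%. The median bifenthrin ratio in lane 7 was 1.03, against 0.962 over all models. The limit on the bifenthrin ratio was met there by 146 of the 184 (79.3%), against 68.8% of all models. A lower copper sulfate than bifenthrin ratio was found in 151 models (82.1%), against 49.7% of all models.

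In the opposite direction lane 7 gave 207 models, 69 of them among the 92. In lane 6, 179 of these (86.5%) had a lower mean with copper sulfate, against 66.7% of all models, with a median ratio of 0.77 against 0.946. The share at or under 0.77 was 50.2% against 9.37%, and the median bifenthrin ratio was 1.048 against 0.928. The limit on the bifenthrin ratio was met in lane 6 by 162 of the 207 (78.3%), against 65.3% of all models. The copper sulfate ratio was below the bifenthrin ratio in 171 models (82.6%), against 43.7% of all models. Models chosen in each lane separately numbered 46, of which 41 were among the 92.

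Single models passed the edgeR test in the lane that did not choose them only in part. With p adjusted over all genes tested in that lane, 5 of the 184 models were called lower in lane 7, 4 of them members, where 0.0471% of all genes were called lower. Of the 207 models, 13 were called lower in lane 6, 8 of them members, against 0.372% of all genes. No model of either choice was called higher. At an unadjusted p under 0.05, 65 of the 184 models (35.3%) were lower in lane 7, against 3.5% of all genes, and 64 of the 207 (30.9%) were lower in lane 6, against 7.57%. At that level 0 of the 184 were higher in lane 7 and 4 of the 207 were higher in lane 6.

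**Figure D5:**
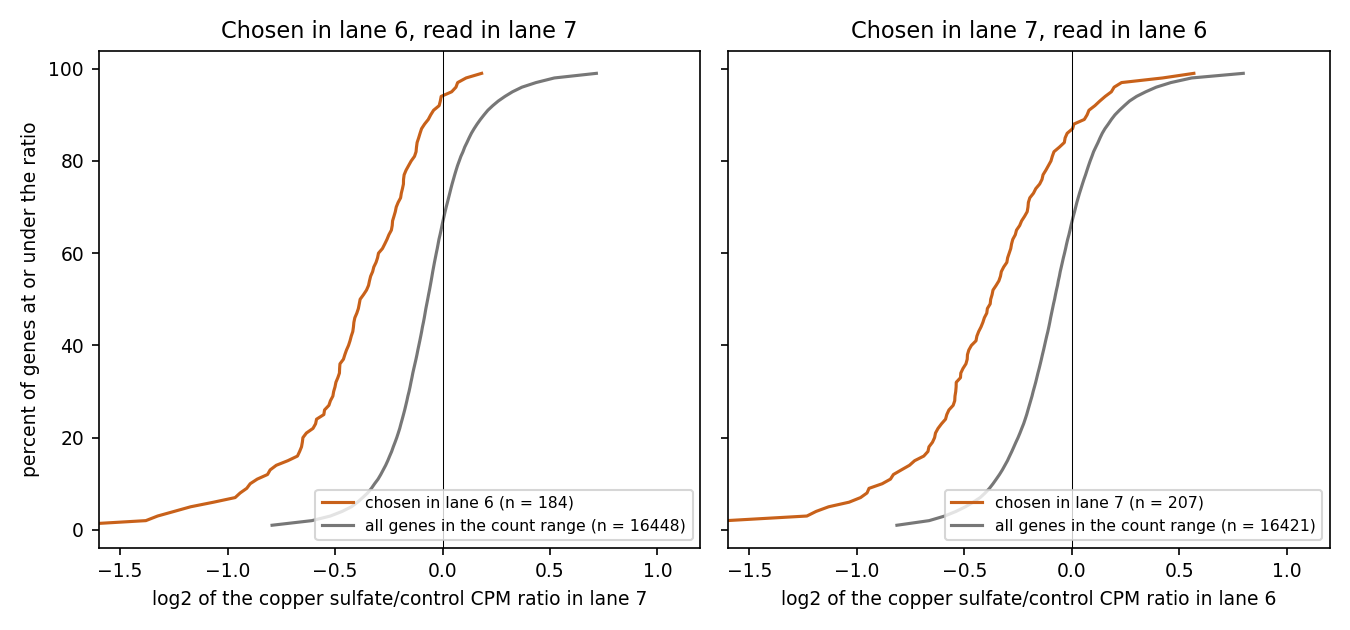
Cumulative curves give the percent of models (y axis) at or under each log2 copper sulfate/control CPM ratio (x axis), in the lane that did not choose the models. The curves of the 184 and 207 chosen models (orange) lie left of those of all models in the count range (grey), with medians of 0.767 and 0.77 as ratios against 0.953 and 0.946.

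The members FMg003660, FMg004685 and FMg010792 were called in both directions. Each was chosen without the larvae of the lane tested, but being a member rested on the larvae of both lanes. The limits were also set with earlier results of these data known. The p-values of named members, here and below, are therefore a description and no independent test. FMg003660 fell by 1.28 on the log2 scale in lane 7 (SE 0.168, edgeR adjusted p = 0.00341) and by 1.59 in lane 6 (SE 0.15, edgeR adjusted p = 4.4e-05). All 6 copper sulfate larvae of lane 7, at 86.0 to 158 CPM, lay below all 5 controls, at 255 to 370 CPM, and all 5 copper sulfate larvae of lane 6 lay below its 6 controls. FMg004685 fell by 1.35 in lane 7 (SE 0.166, edgeR adjusted p = 0.00192) and by 1.55 in lane 6 (SE 0.174, edgeR adjusted p = 1.7e-04), with 3.03 to 6.12 CPM against 11.0 to 17.26 CPM in lane 7. FMg010792 fell by 1.31 in lane 7 (SE 0.274, edgeR adjusted p = 0.0439) and by 1.57 in lane 6 (SE 0.286, edgeR adjusted p = 0.00739). Its copper sulfate larvae reached 2.58 CPM at most, and the lowest control of lane 7 had 2.83 CPM.

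Other members were called in 1 direction, and their p-values are likewise a description only. FMg002560, chosen in lane 7, fell by 5.88 in lane 6 (SE 0.461, edgeR adjusted p = 4.7e-06), where the 5 copper sulfate larvae held 0 to 0.487 CPM and the 6 controls 10.4 to 27.8 CPM. The copper sulfate larva with a high level of FMg002560 was in lane 7. In lane 6 FMg019266 fell by 1.4 (SE 0.193, edgeR adjusted p = 8.7e-04). FMg001358, FMg015366 and FMg016682 were also called there, with log2 changes of -1.65, -0.70 and -0.93. The mean bifenthrin ratio of FMg001358 in lane 6 was 0.580, the lowest of the 92 members there. That of FMg002560 was also under 0.85 in lane 6. FMg001358 and FMg002560 thus did not meet the bifenthrin limit in that lane, whereas FMg019266, FMg015366 and FMg016682 did. In lane 7 FMg010791 fell by 1.25 (SE 0.265, edgeR adjusted p = 0.0473). Its mean bifenthrin ratio in lane 7 was 0.735, the lowest of the 92 members there, so FMg010791 did not meet the bifenthrin limit in that lane. In lane 7 the called model that was not a member was FMg008982, the one just outside the bifenthrin limit.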

How the data were processed

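The authors deposited 1 table of raw counts per gene model and larva, as whole numbers without normalization. Per the labels' protocols, each larva's library started from 250 ng of total RNA (Lexogen SENSE mRNA-Seq V2, a poly(A) selecting kit). Tools named in the submitters' processing notes are bcl2fastq 2.19.1, STAR and limma. The genome build, annotation, counting tool, use of strand and handling of multiply mapped reads were not given in the sources used here, so overlapping or near-identical genes may share counts. Columns were matched to larvae by their description labels, and 0 were left over.

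The members and lists were chosen with earlier results of these data known. Members were found with CPM by column total. Tests used the whole table: filterByExpr left out 4976 models and kept 99.9% of counts, libraries were scaled by TMM, and group and lane were fitted to all 32 larvae with edgeR 4.0.16 (R 4.3.3, quasi-likelihood F test, 2-sided, Benjamini-Hochberg, adjusted p under 0.05). The SE of a log2 fold change is its size divided by the square root of F. Lanes were also fitted alone. Correlations used log2(CPM + 0.5) in Python 3.11.15 with numpy 2.4.6 and scipy 1.17.1.

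The text names the 10 members with the lowest copper sulfate ratio, those with all copper sulfate larvae below controls, the 3 highest and 3 lowest by bifenthrin ratio, the 3 highest by mean CPM, the models beside each limit and the 3 most like FMg002560, besides those said to be chosen later. Members sharing an accession or with an enzyme class were also to be named, and there were 0. Of 10 lists of enzyme classes for copper enzymes, oxidative defence and tissues, 0 models of the table matched any, although 83 models carry an enzyme class, so they give no value. None of the 26150 model numbers matched the reference table of gene symbols. Alternatives were TMM-scaled CPM, other limits, medians, library totals, limma-voom (limma 3.58.1), DESeq2 1.42.0, no filter, single lanes, a replicate block and leaving out each larva.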

Additional observations from a re-analysis of the deposited data

Results flagged for a closer look

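In the 23 members named by the rule, 2 had a bifenthrin larva far from the other 9, by a gap above Dixon's 95% critical value for 10 samples. Chance alone flags about 1 in 20 groups if values are normally distributed, which was not tested for these CPM. FMg001358 had 58.1 CPM in the highest bifenthrin larva and 33.7 in the next, a gap of 0.543 of the range. FMg018185 had 435 CPM in the highest and 308 in the next, a gap of 0.544 of the range. The flags listed cover bifenthrin larvae only, and single larvae also stood apart in other groups. In FMg001358, control replicate 3 had 85.3 CPM and the next control 42.8, and without that larva its copper sulfate ratio was 0.401 in place of 0.321. The high copper sulfate larva of FMg002560 is described above.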

How the results depend on the processing

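The number of models found depended on the limits. It was 49 with a copper sulfate limit of 0.70, 170 with at least 3 and 26 with at least 8 larvae below the lowest control, 71 with TMM-scaled CPM (58 of the 92 shared), 109 with medians (75 shared), and 77 to 149 with 1 larva left out. The extremes came without copper sulfate replicates 5 and 6 (77 each) and control replicate 14 (149), and 51 members were found whichever larva was left out. In lane 6 alone and lane 7 alone, where fewer larvae were tested, 382 and 87 of all genes were called for copper sulfate (1181 with both). There 12 and 4 members were called lower, against 0.372% and 0.0471% of all genes. The members were chosen with the larvae of both lanes, so nothing is read from these counts of members either. In the same fits 10 and 10 members were called for bifenthrin, and 48 and 50 were called higher in bifenthrin than in copper sulfate larvae. With 1 larva left out these 4 counts ranged from 923 to 1376, 34 to 48, 19 to 22 and 76 to 85. Shares of all genes are not given beside the other counts of members called in this paragraph, so nothing is read from them. With library totals in place of TMM, 66 members were called lower with copper sulfate. The 1698 genes called for copper sulfate in that fit count either direction, so the 2 counts are not compared. The median log2 fold change of the members kept its sign in every alternative, from -0.47 to -0.42 for copper sulfate and 0.11 to 0.16 for bifenthrin with 1 larva left out. Of models chosen in lane 6, 109 of 123 were lower in lane 7 with TMM-scaled CPM (88.6%, all models 51.0%), 76 of 79 with a limit of 0.70 and 240 of 258 with at least 2 larvae. In the other direction these were 131 of 162 (80.9%, all models 52.7%), 88 of 103 and 259 of 299. Lane was called for 0 members with limma-voom and without the filter. TMM-scaled CPM changed the mean correlation of members to 0.140 and of all models in the count range to 0.00138, and without copper sulfate larvae that of members was 0.149, choices made after seeing the data. With DESeq2, limma-voom, no filter, no lane term or only the groups compared, counts of calls stayed within 1.5 times. Depth limits low members such as FMg010792, with under 3 CPM in copper sulfate larvae.

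Larvae of different groups with the same replicate number did not deviate together more than others. Over 30 such pairs the correlation ran from -0.20 to 0.24 with a median of -0.01, and 8 were over 0.1. Over 140 pairs of other numbers in the same lane the median was 0.006, and 29 were over 0.1. These values show no pairing by number across groups, but they cannot show how larvae were handled. Sharing of a beaker within a group was not tested. With a replicate block, 727 genes were called for copper sulfate, 25 members were called lower, 19 were called for bifenthrin and 79 were called higher in bifenthrin than in copper sulfate larvae. The matching shares of all genes in that fit are not given, so nothing is read from these counts of members.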
